A study of Mus musculus with 12 samples.

Results

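The small leucine-rich proteoglycans (SLRPs) are described here in the hearts of 12 wild-type mice. They are represented by 9 genes, Dcn, Bgn, Aspn, Lum, Prelp, Fmod, Omd, Ogn and Podn, each of which was found by its symbol in exactly 1 of the 55487 rows of the deposited expression table. The 4 groups of 3 libraries were I/R+B12, I/R, Sham+B12 and Sham. In the I/R groups the left anterior descending coronary artery was closed for 45 min and the heart was then reperfused for 24 h, and the Sham groups had the operation without the occlusion. The B12 groups drank water with 50 mg/L vitamin B12 for 7 days before surgery, at about 4 mL of water per day, and the I/R and Sham groups drank normal water. All groups shared the wild-type genotype, the thoracotomy and the anaesthesia. Each library came from heart tissue, and the labels do not say whether the infarcted zone was taken separately. Replicates are separate samples by their labels, and p-values measure the spread between these samples.

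SLRPs are secreted matrix proteins built around a run of leucine-rich repeats, and most of them carry chondroitin, dermatan or keratan sulfate chains. They bind collagen fibrils and control fibril width and spacing, and several also bind TGF-beta or cell surface receptors. In the heart they are made mainly by fibroblasts, and decorin, biglycan and lumican are known components of the matrix that is laid down during scar formation.

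Expression is given in FPKM, a count of sequenced fragments divided by transcript length and by library depth, a scale on which genes of different length can be compared. Differences are on the log2(FPKM + 1) scale, come from a limma fit of all 12 libraries over 13001 genes, and carry p-values adjusted by Benjamini-Hochberg over those genes. A gene was called when that adjusted p was under 0.05. Of the 9 SLRP genes, 8 reached 1 FPKM in at least 3 libraries and were tested. Omd did not, and Fmod did so through 1 library in each of 3 groups.

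The libraries did not all sit with their groups. Their estimated depth was between 23.9 and 28.85 M fragments. Across genes, the library labelled I/R 3 was nearest to Sham 2 (r = 0.982), Sham 3 was nearest to I/R+B12 1 (r = 0.969), and I/R+B12 1 was nearest to I/R 1 (r = 0.979). The mean centred log2 level of 7 tested neutrophil markers was -1.63 in I/R 3, against 3.01 in I/R 1 and 2.71 in I/R 2. The library Sham 3 had 3157 FPKM of Nppa, where the other 11 libraries had 178 to 707 FPKM. Nppa belongs to a list of 6 atrial markers, and the others were not raised in Sham 3. Myl4 had 3.41 FPKM there, Dkk3 0.76 FPKM, and Myl7, Sln and Bmp10 0.0 FPKM. Labels were kept as given, and counts of SLRP genes that were called or did not overlap are also given without these libraries where that changes them.

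The SLRP genes lie in known clusters, with coordinates on mm10 from GENCODE M21. Dcn (chr10:97479609-97518143) and Lum (chr10:97565128-97572703) are neighbours on the plus strand of chromosome 10, separated by 47.0 kb. Aspn (chr13:49544443-49567565), Omd (chr13:49582462-49592822) and Ogn (chr13:49608046-49624501) follow each other on the plus strand of chromosome 13. Prelp (chr1:133910304-133921414, minus strand) and Fmod (chr1:134037254-134048277, plus strand) share a stretch of chromosome 1, 115.8 kb apart. Bgn (chrX:73483602-73495933, plus strand) and Podn (chr4:108014791-108096445, minus strand) lie alone.

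The 250 bases before the RefSeq transcript start (GRCm38.p6) are shown for Prelp, Ogn and Bgn, which belong to the 4 SLRP genes whose I/R+B12 libraries were all below the other 9 libraries, Lum being the other one. Of the 9 genes, 7 matched the RefSeq promoter table, and Dcn and Lum did not. Each sequence runs 5′ to 3′ on the strand of its gene, and capitals mark every match, on either strand, to the 5 motifs searched. These were the TATA box (TATAAA), the CCAAT box, the GC box (GGGCGG), the AP-1 site (TGANTCA) and the TEAD site (GGAATG).
Prelp, chr1:133921402-133921651, minus strand: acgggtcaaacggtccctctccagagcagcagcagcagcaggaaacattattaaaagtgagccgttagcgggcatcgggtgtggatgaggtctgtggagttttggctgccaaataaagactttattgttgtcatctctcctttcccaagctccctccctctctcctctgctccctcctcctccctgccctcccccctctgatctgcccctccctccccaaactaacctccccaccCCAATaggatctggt
Ogn, chr13:49607765-49608014, plus strand: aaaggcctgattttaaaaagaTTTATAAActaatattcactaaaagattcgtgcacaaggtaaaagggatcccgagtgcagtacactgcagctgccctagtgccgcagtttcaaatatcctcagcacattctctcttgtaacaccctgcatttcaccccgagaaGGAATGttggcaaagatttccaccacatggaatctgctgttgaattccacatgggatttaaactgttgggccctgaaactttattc
Bgn, chrX:73483351-73483600, plus strand: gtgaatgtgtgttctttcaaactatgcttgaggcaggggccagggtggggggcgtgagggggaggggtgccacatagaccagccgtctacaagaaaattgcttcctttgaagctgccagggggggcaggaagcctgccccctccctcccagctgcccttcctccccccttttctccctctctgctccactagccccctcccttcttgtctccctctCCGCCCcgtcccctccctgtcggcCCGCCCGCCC
The Prelp window held 1 CCAAT box at position -15, with positions counted back from the start. The Ogn window held a TEAD site at position -86 and a run near position -229 that matches the TATA box on both strands. The Bgn window held the GC box on the opposite strand at positions -34, -10 and -6, the last 2 overlapping. Bases G and C made up 55.6% of the Prelp window, 42.0% of the Ogn window and 64.4% of the Bgn window. No motif was shared by the 3 windows. Among RefSeq promoter windows of the same length from 27025 genes, 34.5% held a CCAAT box, 32.9% a GC box, 13.0% a TATA box, 12.6% a TEAD site and 6.87% an AP-1 site. These matches describe letters in the windows and are not evidence of binding.

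Decorin and biglycan dominated the family. Over the 12 libraries Dcn averaged 381 FPKM and Bgn 151 FPKM, followed by Lum at 30.3, Prelp at 18.5, Ogn at 16.9, Podn at 6.58, Aspn at 6.15, Fmod at 1.05 and Omd at 0.45 FPKM. Dcn alone made up between 56.8% and 68.5% of the summed SLRP FPKM of a library, and Bgn between 21.2% and 30.9%. Dcn exceeded Bgn, Bgn exceeded Lum and Lum exceeded Prelp in all 12 libraries. Lower in the order, Ogn exceeded Podn and Aspn exceeded Fmod, also in all 12 libraries. The other 3 neighbouring pairs were not separated, as Prelp exceeded Ogn in 8 of 12 libraries, Podn exceeded Aspn in 9 of 12, and Fmod exceeded Omd in 5 of 12. The summed SLRP level was 409 to 466 FPKM in I/R+B12 hearts, 649 to 824 FPKM in I/R hearts, 519 to 619 FPKM in Sham+B12 hearts and 615 to 802 FPKM in Sham hearts.

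**Figure D1:**
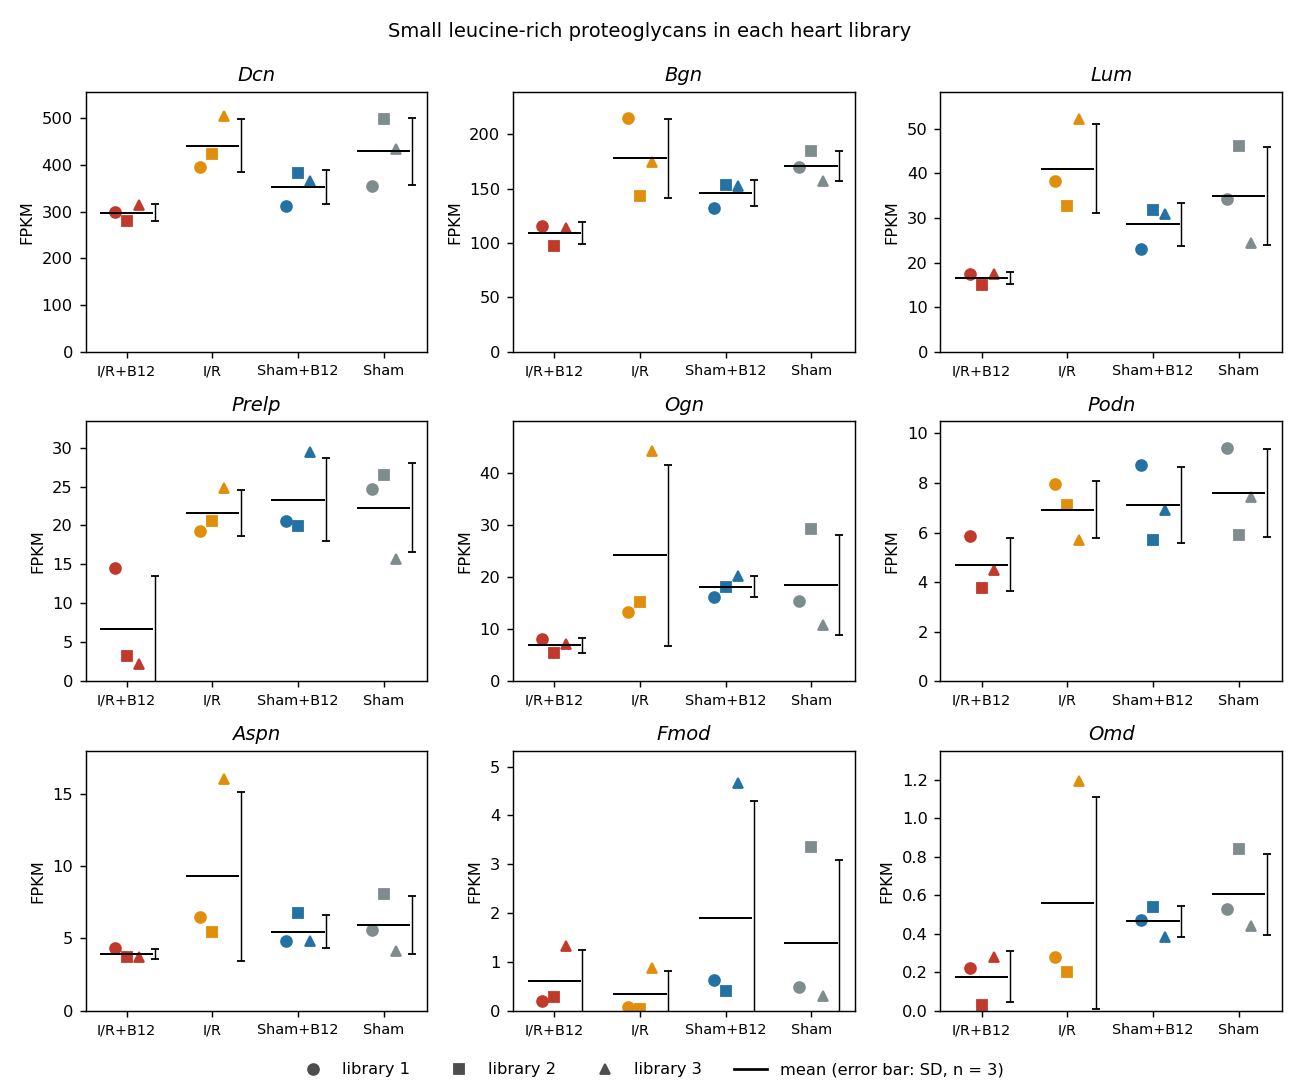
FPKM of each of the 9 SLRP genes (vertical axis, from 0, a separate scale per gene) in the I/R+B12, I/R, Sham+B12 and Sham groups. Each marker is a library, its shape gives the replicate number, the horizontal line is the group mean and the error bar is the SD of 3 libraries, cut at 0 where it would pass below. The 3 I/R+B12 libraries of Bgn, Lum, Prelp and Ogn sit below all 9 other libraries, with the Prelp library I/R+B12 1 at 14.5 FPKM far above the other two of its group.

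The main pattern was a low level in the hearts of mice given B12 before I/R. In 8 of the 9 genes the lowest of all 12 libraries was an I/R+B12 library, the exception being Fmod, which was lowest in I/R 2. For Dcn, Lum, Bgn, Ogn, Omd and Podn it was I/R+B12 2. That library had the lowest median-ratio scaling factor of the 12 (0.854), so its values were low across genes in general. The share of all tested genes that were lowest in an I/R+B12 library was not computed, so this count has no background. For Lum, Bgn, Prelp and Ogn all 3 I/R+B12 libraries were below each of the other 9 libraries, as were 4.46% of all tested genes. This count was 6 when I/R+B12 1 was left out (26.8% of all tested genes), 5 without Sham 3 and I/R 3 (6.91%) and 4 without I/R 3 alone (4.63%). In whole heart tissue, fewer cells that make a transcript and less of that transcript per cell cannot be told apart. The comparison of I/R+B12 with I/R asks what B12 did in injured hearts, and that of I/R+B12 with Sham+B12 what injury did under B12. Both use the same I/R+B12 libraries, so their values for a gene are not independent.

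Decorin, the most abundant of the family, carries a single chondroitin or dermatan sulfate chain and binds collagen fibrils and TGF-beta. Dcn had 298, 280.2 and 315 FPKM in the I/R+B12 libraries, against 396, 425 and 504 FPKM in the I/R libraries, and all I/R+B12 libraries were below all I/R libraries. The Sham+B12 libraries had 313, 383 and 366 FPKM and the Sham libraries 355, 498 and 434 FPKM, so that I/R+B12 and Sham+B12 overlapped by a narrow margin. The difference was -0.56 (SE 0.15, adjusted p = 0.0857) between I/R+B12 and I/R, and -0.24 (SE 0.15, adjusted p = 0.268) between I/R+B12 and Sham+B12. Neither passed the threshold.

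Biglycan, the closest relative of decorin, is a ligand of Toll-like receptors when it is released from the matrix. Bgn had 116, 97.4 and 114 FPKM in I/R+B12 hearts, against 215, 143 and 174 FPKM in I/R hearts, with no overlap. It had 132, 153 and 153 FPKM in Sham+B12 hearts and 169.8, 185 and 157 FPKM in Sham hearts. The difference was -0.68 (SE 0.15, adjusted p = 0.0779) against I/R and -0.42 (SE 0.15, adjusted p = 0.0880) against Sham+B12. Asporin, another relative in this class, has an aspartate-rich end in place of the chain attachment site. Aspn had 4.31, 3.71 and 3.68 FPKM in I/R+B12 hearts, against 6.47, 5.42 and 16.0 FPKM in I/R hearts. The library I/R 3 stood far above the rest, and the Sham+B12 libraries (4.83, 6.76 and 4.79 FPKM) and Sham libraries (5.61, 8.06 and 4.11 FPKM) lay closer to I/R+B12. The Aspn difference was -0.93 (SE 0.33, adjusted p = 0.109) against I/R and -0.39 (SE 0.33, adjusted p = 0.432) against Sham+B12.

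Lumican, a keratan sulfate SLRP that limits the lateral growth of collagen fibrils, showed the smallest raw p of the family against I/R. Lum had 17.4, 15.0 and 17.4 FPKM in I/R+B12 hearts, against 38.4, 32.7 and 52.1 FPKM in I/R hearts. It had 23.05, 31.8 and 31.0 FPKM in Sham+B12 hearts and 34.3, 46.2 and 24.3 FPKM in Sham hearts. The I/R+B12 libraries were the 3 lowest of 12. The mean was 16.6 ± 1.37 FPKM in I/R+B12 and 41.1 ± 9.95 FPKM in I/R (SD, n = 3 each), a log2 difference of -1.23 (95% interval -1.74 to -0.72, adjusted p = 0.0739). Against Sham+B12 (28.6 ± 4.84 FPKM) the difference was -0.74 (95% interval -1.25 to -0.23, adjusted p = 0.0618).

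Prelp, an SLRP with a basic end that binds heparan sulfate and is thought to tie basement membranes to the surrounding matrix, was the SLRP gene that passed the test. It had 14.5, 3.29 and 2.20 FPKM in the I/R+B12 libraries, against 20.55, 20.0 and 29.4 FPKM in the Sham+B12 libraries. It had 19.2, 20.6 and 24.9 FPKM in the I/R libraries and 24.65, 26.5 and 15.7 FPKM in the Sham libraries. All 3 I/R+B12 libraries were below the other 9, but unevenly: I/R+B12 1 was close to the lowest Sham library, Sham 3, while I/R+B12 2 and 3 were far below every other library. These values stand for an estimated 1189, 298 and 203 fragments in the I/R+B12 libraries and 1353 to 2431 fragments in the others. Prelp fell in I/R+B12 against Sham+B12 by 2.00 on the log2 scale (SE 0.46, 95% interval -3.02 to -0.99, adjusted p = 0.0293 by limma). Against I/R the difference was of similar size, -1.91 (SE 0.46, 95% interval -2.93 to -0.89), but the adjusted p was 0.0788. The call against Sham+B12 was lost when I/R+B12 2 or any 1 of the Sham+B12 libraries was left out (adjusted p between 0.0709 and 0.109). It was also lost without the filter on low values (adjusted p = 0.0725) and in a fit of the compared groups alone (adjusted p = 0.0920). Without I/R+B12 1 the difference was -2.69 against Sham+B12 and -2.60 against I/R, both called.

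Osteoglycin, also named mimecan, belongs to a separate class of SLRPs and takes part in collagen fibril assembly. Ogn had 8.18, 5.33 and 7.05 FPKM in I/R+B12 hearts, against 13.2, 15.1 and 44.2 FPKM in I/R hearts. It had 16.1, 18.0 and 20.25 FPKM in Sham+B12 hearts and 15.4, 29.2 and 10.7 FPKM in Sham hearts. I/R+B12 did not overlap with any other group, while I/R 3 and Sham 2 stood above all other libraries. The difference was -1.49 (SE 0.42, adjusted p = 0.0891) against I/R and -1.30 (SE 0.42, adjusted p = 0.0664) against Sham+B12. Podocan, of a further class, binds collagen, and it had 5.85, 3.76 and 4.50 FPKM in I/R+B12 hearts against 7.95, 7.13 and 5.68 FPKM in I/R hearts. The groups overlapped for Podn, and its difference was -0.48 (adjusted p = 0.162) against I/R and -0.51 (adjusted p = 0.122) against Sham+B12, whose libraries had 8.74, 5.70 and 6.91 FPKM. Sham libraries had 9.42, 5.88 and 7.43 FPKM of Podn.

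The remaining genes were scarce. Fibromodulin, a keratan sulfate relative of lumican that is abundant in tendon and cartilage, varied more between libraries of 1 group than between groups. Fmod had 0.20, 0.27 and 1.33 FPKM in I/R+B12 hearts, 0.08, 0.03 and 0.88 FPKM in I/R hearts, 0.63, 0.40 and 4.67 FPKM in Sham+B12 hearts and 0.49, 3.35 and 0.30 FPKM in Sham hearts. Every group had 1 library well above the others. Its log2 difference was 0.25 (95% interval -1.01 to 1.52) between I/R+B12 and I/R, and -0.62 (95% interval -1.88 to 0.64) between I/R+B12 and Sham+B12. Both intervals include 0 and are wide. Omd, osteomodulin, a keratan sulfate SLRP best known from bone, had 0.22, 0.03 and 0.28 FPKM in I/R+B12 hearts, against 0.28, 0.20 and 1.19 FPKM in I/R hearts. It had 0.47, 0.54 and 0.38 FPKM in Sham+B12 hearts and 0.53, 0.84 and 0.44 FPKM in Sham hearts, and was not tested at this level, which stands for an estimated 2 to 60 fragments per library. The 3 I/R+B12 libraries of Omd were below all Sham+B12 and Sham libraries but overlapped with I/R.

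Across the family, in I/R+B12 against I/R, limma called 0 of the 8 tested SLRP genes, and 0 of all 13001 genes (0.0%). At an unadjusted p under 0.05, 7 of the 8 were lower in I/R+B12, against 24.6% of all tested genes. The libraries did not overlap for 6 of them (Dcn, Bgn, Lum, Prelp, Ogn and Aspn), against 18.8% of all tested genes that were lower without overlap. Podn joined them without I/R 3 (7 of 8, against 30.6%) and without I/R+B12 1 (7 of 8, against 45.3%). The median log2 difference of the 8 was -0.81, and that of all tested genes was -0.21. With median-ratio scaling the median of all genes moved to -0.04 and the SLRP differences other than Fmod lay between -1.74 for Prelp and -0.31 for Podn, with Fmod at 0.30. The count of calls was 6 without I/R+B12 1 (Dcn, Bgn, Lum, Prelp, Ogn and Podn), where 30.1% of all genes were called lower. With library weights it was 4 (Dcn, Lum, Prelp and Ogn), where 29.0% of all genes were. Without Sham 3 and I/R 3 it was 0, where 0.0231% of all genes were.

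In I/R+B12 against Sham+B12, limma called 1 of the 8 tested SLRP genes, Prelp, which was lower, against 3.62% of all tested genes that were called lower and 10.4% called in either direction. At an unadjusted p under 0.05, 5 of the 8 were lower (Lum, Bgn, Prelp, Ogn and Podn), against 15.0% of all tested genes. The libraries did not overlap for 5 (Lum, Bgn, Prelp, Ogn and Aspn), against 13.2% of all tested genes, and for 6 without I/R+B12 1, when Podn joined them (against 35.5%). All 8 differences were negative, with a median of -0.57, where the median of all tested genes was -0.02. The count of calls was 3 with library weights (13.6% of all genes called lower) and 3 without Sham 3 and I/R 3 (4.52%), in both cases Lum, Prelp and Ogn. It was 2, Prelp and Podn, without I/R+B12 1 (19.2%).

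The interaction, which is I/R+B12 minus Sham+B12 from which I/R minus Sham is taken away, was -1.98 for Prelp (SE 0.66), -1.57 for Ogn (SE 0.59) and -0.99 for Lum (SE 0.33), with adjusted p of 0.387 to 0.401. None of the 8 was called, and 0.0% of all genes were. At an unadjusted p under 0.05, these 3 were lower, against 8.86% of all tested genes. Prelp was called by limma without I/R+B12 1 (-2.67, adjusted p = 0.00366) and with library weights (-2.49, adjusted p = 0.0171). The share of all tested genes called in the interaction was not computed for these settings, so these calls have no background.

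**Figure D2:**
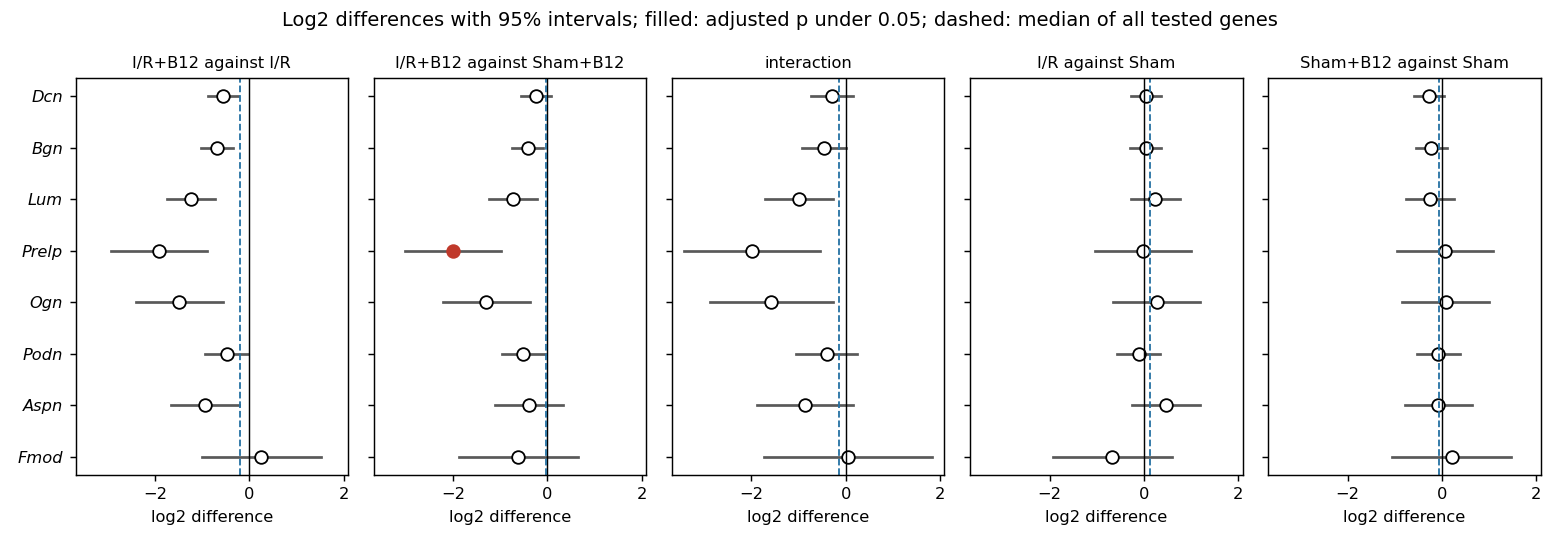
Log2 differences (horizontal axis, log2(FPKM + 1) scale) of the 8 tested SLRP genes in 5 comparisons, with 95% intervals from limma. A filled point marks an adjusted p under 0.05, and the dashed line is the median of all 13001 tested genes. Prelp in I/R+B12 against Sham+B12, at -2.00, is the filled point, and in the comparison with I/R every gene but Fmod lies left of the dashed line.

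In hearts of mice on normal water, no SLRP gene was called between I/R and Sham. The differences between I/R and Sham were 0.47 for Aspn, 0.28 for Ogn, 0.25 for Lum, 0.05 for Dcn, 0.04 for Bgn, -0.02 for Prelp, -0.10 for Podn and -0.67 for Fmod. By limma, 0 of the 8 were called and 0 reached an unadjusted p under 0.05, against 0.0% and 11.7% of all tested genes. The libraries overlapped for all 8, where 3.6% of all tested genes were lower and 18.8% higher in I/R without overlap. Without I/R 3 and Sham 3, Prelp, Ogn and Fmod were lower in I/R without overlap, 3 of 8 against 15.6% of all tested genes, and 0 were higher, against 47.2%. Without I/R 3 alone Fmod was lower without overlap, 1 of 8 against 8.22%, and 0 were higher (36.6%). Without Sham 3 alone 0 were lower (7.78%) and 0 higher (28.2%). The intervals allow changes of some size in either direction, for example -0.64 to 1.20 for Ogn and -0.29 to 0.37 for Bgn. Leaving out I/R 3 and Sham 3 turned the direction for Ogn (-0.55), Lum (-0.16), Aspn (-0.16), Dcn (-0.04), Bgn (-0.01) and Podn (0.01). Between Sham+B12 and Sham, limma called 0 of the 8, 0 reached an unadjusted p under 0.05, against 0.0% and 1.69% of all tested genes, and differences ran from -0.27 for Dcn to 0.21 for Fmod. Bgn was the 1 gene without overlap, with 132 to 153 FPKM in Sham+B12 hearts and 157 to 185 FPKM in Sham hearts, and 8.98% of all tested genes were lower without overlap in that comparison. Without Sham 3, Lum joined it (2 of 8, against 16.8%), and 0 were higher (3.54%).

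Some SLRP genes varied together within groups, and others did not. In 5 genes (Dcn, Lum, Ogn, Omd and Aspn) the 2 highest libraries were I/R 3 and Sham 2. Sham 2 was the highest Sham library for 8 of the 9 genes and Sham 3 the lowest for 7. The shares of all tested genes with the same order of libraries were not computed, so these counts have no background. Over the 12 libraries, Pearson's r of log2(FPKM + 1) was 0.91 between Lum and Ogn, 0.89 between Lum and Bgn and 0.88 between Ogn and Aspn. With the group means removed, r was 0.87 for Lum and Ogn and 0.91 for Ogn and Aspn, but 0.57 for Lum and Bgn. Of the 28 pairs of tested genes, 10 had r over 0.5 after removal of the group means. The 21 pairs without Podn ran from 0.07 for Dcn and Prelp to 0.91, with a median of 0.41. For Bgn, r was 0.19 with Dcn, 0.23 with Prelp and 0.23 with Ogn. Podn had a negative r with Dcn (-0.77), Aspn (-0.51), Lum (-0.47), Ogn (-0.44) and Fmod (-0.40). These values describe 12 libraries that share their depth and tissue sampling across genes. The r between pairs of other genes was not computed, so the count of pairs over 0.5 has no background.

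The genes outside the family with the most similar pattern to the mean of the 8 tested SLRP genes over the 12 libraries were Antxr1 (r = 0.960), Ecm2 (r = 0.960), Etl4 (r = 0.958), Cryl1 (r = 0.956) and C1qtnf2 (r = 0.955). Ecm2, a leucine-rich matrix protein gene, lies 11.7 kb from Aspn in the chromosome 13 cluster. Ecm2 had 3.67, 1.94 and 2.05 FPKM in I/R+B12 hearts, against 7.99, 9.29 and 8.26 FPKM in Sham+B12 hearts and 6.64, 6.34 and 13.9 FPKM in I/R hearts. It fell in I/R+B12 against Sham+B12 by 1.45 on the log2 scale (adjusted p = 0.0303 by limma), and the difference from I/R was -1.44 (adjusted p = 0.0788). Ecm2 was picked by likeness to an SLRP mean that was lowest in I/R+B12. Its low level there follows from that choice and is not a separate result. A list of 9 other SLRPs and close leucine-rich matrix proteins held Ecm2, and 3 of its genes were tested. In both comparisons 2 of the 3 were negative and 1 was positive. The list median was -0.31 against Sham+B12 and -0.17 against I/R, where all tested genes had -0.02 and -0.21. Tsku, also of this list, had 3.0, 4.93 and 1.16 FPKM in I/R+B12 hearts and 1.15, 1.15 and 1.35 FPKM in Sham+B12 hearts. Kera, which lies beside Lum, was listed at 0 in all 12 libraries.

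**Figure D3:**
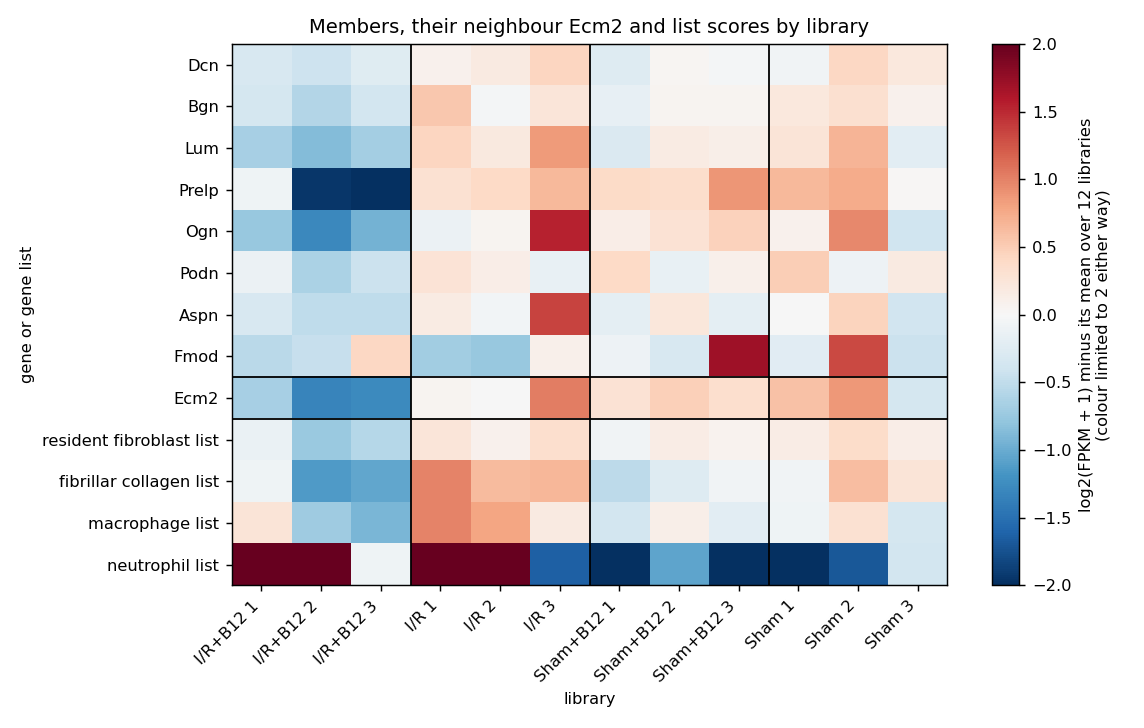
Log2(FPKM + 1) of the 8 tested SLRP genes and Ecm2, and mean scores of 4 gene lists, each minus its mean over the 12 libraries (colour, limited to 2 either way), by library. Columns run from I/R+B12 through I/R and Sham+B12 to Sham. Blue fills most SLRP rows in I/R+B12, the rows Ogn and Aspn are darkest red in I/R 3, and the neutrophil row is blue in I/R 3.

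Markers of the cells that make SLRPs, and the collagens that SLRPs bind, were examined beside them. Resident fibroblast markers, a list of 12 genes that holds no SLRP, summed to 748 to 905 FPKM in I/R+B12 hearts, 939 to 1343 FPKM in I/R hearts, 1165 to 1211 FPKM in Sham+B12 hearts and 1195 to 1365 FPKM in Sham hearts. Most of each sum was Gsn, with 523 to 656 FPKM in I/R+B12 hearts, 579 to 890 FPKM in I/R hearts, 778 to 837 FPKM in Sham+B12 hearts and 781 to 898 FPKM in Sham hearts. None of the 12 markers was at 0 in all libraries. In I/R+B12 against I/R all 12 differences were negative, with a median of -0.50 and 0 called, where 71.8% of all tested genes were negative. Against Sham+B12, 8 of the 12 were negative, where 51.9% of all tested genes were, and 4 were positive. By limma 2 were called lower, the transporter gene Abca8a (-2.80, adjusted p = 0.0211) and the ferritin receptor gene Scara5 (-0.82, adjusted p = 0.0487). At an unadjusted p under 0.05, 6 were lower, against 15.0% of all tested genes, and 1 was higher. Pdgfra was higher without overlap, with 15.2, 10.25 and 13.0 FPKM in I/R+B12 hearts and 7.94, 8.02 and 8.31 FPKM in Sham+B12 hearts. Relative to the mean score of this list, which differed by -0.71 between I/R+B12 and I/R, the SLRP differences were -1.20 for Prelp, -0.78 for Ogn and -0.52 for Lum, with no overlap, and 0.15 for Dcn, 0.02 for Bgn, -0.23 for Aspn, 0.23 for Podn and 0.96 for Fmod, none of which was lower without overlap. Of all tested genes, 0.954% were lower without overlap on this scale. The same 3 SLRP genes were so without I/R 3 (2.92% of all genes) and without I/R+B12 1 (4.55%). Against Sham+B12, where the score differed by -0.53, they were -1.48 for Prelp and -0.77 for Ogn with no overlap, -0.21 for Lum, -0.10 for Fmod, 0.02 for Podn, 0.11 for Bgn, 0.14 for Aspn and 0.28 for Dcn. Of all tested genes, 1.89% were lower without overlap, and Prelp and Ogn were the SLRP genes that were so without I/R+B12 1 too (5.65%). In both comparisons the score fell more than the median of all tested genes, which was -0.21 against I/R and -0.02 against Sham+B12. Subtracting the score therefore raises every difference, and the all-gene shares were 18.8% and 13.2% before subtraction. The shares on this scale do not measure how unusual the SLRP genes are. The part of the fibroblast markers in the SLRP differences was not tested.

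Collagens that form fibrils or sit on them, the ligands of most SLRPs, summed to 86.1 to 193 FPKM in I/R+B12 hearts, against 383 to 503 FPKM in I/R hearts. They summed to 150.3 to 224 FPKM in Sham+B12 hearts and 215 to 382 FPKM in Sham hearts. All 10 tested collagen genes were lower in I/R+B12 than in I/R, with a median difference of -1.41 and 0 called, led by Col3a1 (-2.73) and Col1a2 (-1.51), both at an adjusted p of 0.0739. In I/R against Sham all 10 were positive, with a median of 0.55 and 0 called, where the SLRP median was 0.04. Of all tested genes, 30.9% were negative in I/R against Sham, and their median was 0.13. Monocyte and macrophage markers were also lower in I/R+B12 than in I/R, 9 of 9 with a median of -1.26 and 0 called, and summed to 224 to 567 FPKM in I/R+B12 hearts and 709 to 1045 FPKM in I/R hearts. So were pericyte and smooth muscle markers, 8 of 8 with a median of -0.60 and 0 called, which summed to 183 to 250.1 FPKM in I/R+B12 hearts and 314 to 355 FPKM in I/R hearts. At an unadjusted p under 0.05, 10 of 10 collagens, 7 of 9 macrophage, 5 of 8 pericyte and smooth muscle, 5 of 12 fibroblast and 4 of 10 activated fibroblast genes were lower in that comparison. Of all tested genes, 24.6% were lower at this cut. A negative difference was found for 71.8% of all tested genes there, with a median of -0.21. The part of these cell types in the SLRP differences was not tested.

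Genes that build, cut or sense SLRPs were compared between I/R+B12 and Sham+B12, where 10.4% of all tested genes were called, 6.78% higher and 3.62% lower. Of 18 tested genes for chondroitin and dermatan sulfate chains, Chst11 (1.15, adjusted p = 0.0329), a chondroitin sulfotransferase, and Csgalnact2 (0.65, adjusted p = 0.0420), which starts the chain, were called higher, a share of the list near that of all genes, and the median of the list was -0.04. B3gnt2 (0.67, adjusted p = 0.0407), which extends keratan sulfate-type chains, was the 1 of 5 keratan sulfate genes called, also higher. Of 8 proteases known to cut SLRPs, Mmp14 (1.86, adjusted p = 0.0241) and Adamts4 (2.99, adjusted p = 0.0364) rose, and the median was 1.07. Mmp14 averaged 24.6 ± 4.50 FPKM in I/R+B12 hearts and 6.04 ± 1.20 FPKM in Sham+B12 hearts (SD, n = 3 each). Of 11 receptors and signalling partners, Myd88 (1.44, adjusted p = 0.0280), Cd14 (2.72, adjusted p = 0.0337) and Tlr4 (0.95, adjusted p = 0.0451) rose, all of them part of Toll-like receptor signalling, and the median was 0.61. Neutrophil markers summed to 98.6 to 1972 FPKM in I/R+B12 hearts and 1.11 to 35.7 FPKM in Sham+B12 hearts, and their part in these changes was not tested. Among 7 TGF-beta ligands and latent binding proteins, Ltbp1 was called lower (-0.77, adjusted p = 0.0378). In these 5 lists limma called 0 genes between I/R+B12 and I/R and 0 between I/R and Sham. In I/R against Sham, 11 of 11 receptor genes were positive (median 0.39), as were 6 of 8 protease genes (median 0.44), with 2 negative. The median of all tested genes there was 0.13, and 30.9% were negative. Mmp14 had 28.7, 22.5 and 12.2 FPKM in I/R hearts and 6.18, 13.1 and 20.6 FPKM in Sham hearts. At an unadjusted p under 0.05 between I/R+B12 and I/R, lower genes numbered 7 of 18 for chondroitin and dermatan sulfate chains, 4 of 11 for receptors, 4 of 7 for TGF-beta and 0 of 8 for proteases, against 24.6% of all tested genes.

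**Figure D4:**
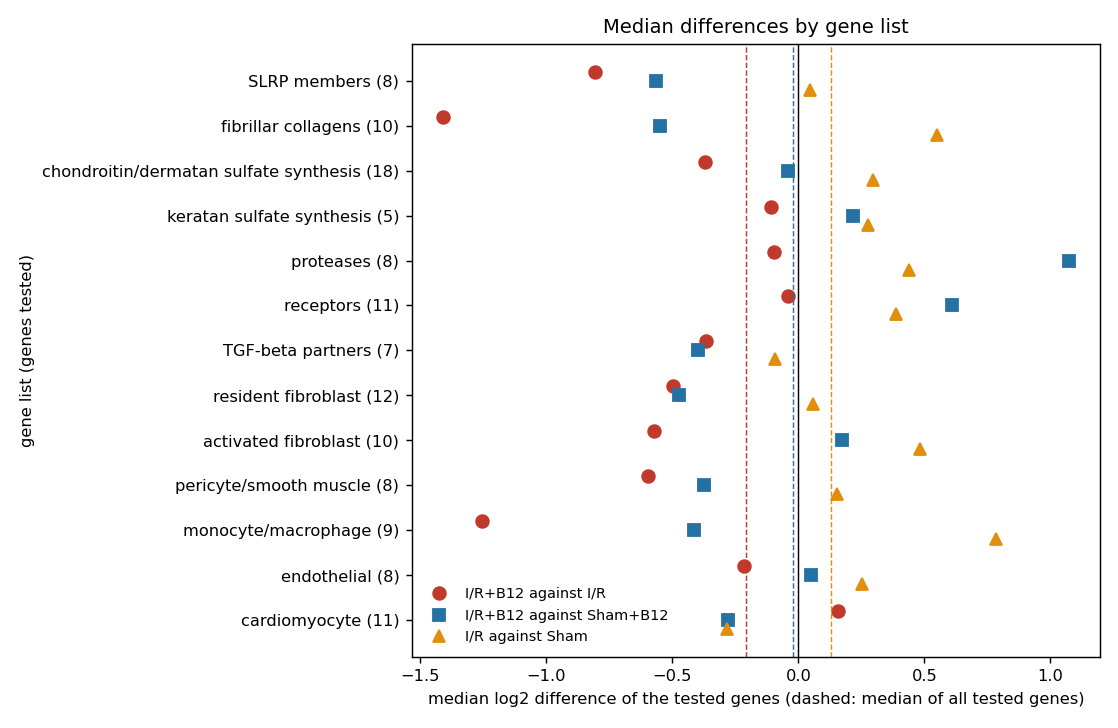
Median log2 difference (horizontal axis, log2(FPKM + 1) scale) of the tested genes of each list, with the number tested in brackets, in I/R+B12 against I/R (circles), I/R+B12 against Sham+B12 (squares) and I/R against Sham (triangles). Dashed lines are the medians of all tested genes. The SLRP circle lies at -0.81 and its triangle at 0.04, while the collagen circle lies at -1.41 and its triangle at 0.55.

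Fmod followed its own pattern, and 2 cartilage and tendon genes, chosen after their values were seen, are shown beside it. Chad encodes chondroadherin, a leucine-rich protein of cartilage, and Comp the cartilage oligomeric matrix protein. The library Sham+B12 3 had the highest level of all 3 genes, 4.67 FPKM of Fmod, 4.06 FPKM of Chad and 8.01 FPKM of Comp. The other 2 Sham+B12 libraries had 0.63 and 0.40 FPKM of Fmod, 0.03 and 0.03 FPKM of Chad, and 2.86 and 1.81 FPKM of Comp. Within each group the library with the most Fmod also had the most Chad and the most Comp, namely I/R+B12 3, I/R 3, Sham+B12 3 and Sham 2. The other genes of the list of 10 connective tissue markers from which this pair was picked did not all do so. Scx, a tendon transcription factor gene, had 8.05, 6.27 and 3.19 FPKM in I/R hearts and was lowest in I/R 3. Thbs4, a thrombospondin gene, was highest in I/R+B12 1, I/R 1 and Sham 3 of their groups, and Cilp, a cartilage matrix protein gene, in I/R 1 and Sham 1. All 3 were highest in Sham+B12 3 among the Sham+B12 libraries. The amount of valve, vessel wall or other connective tissue in each sample was not tested.

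**Figure D5:**
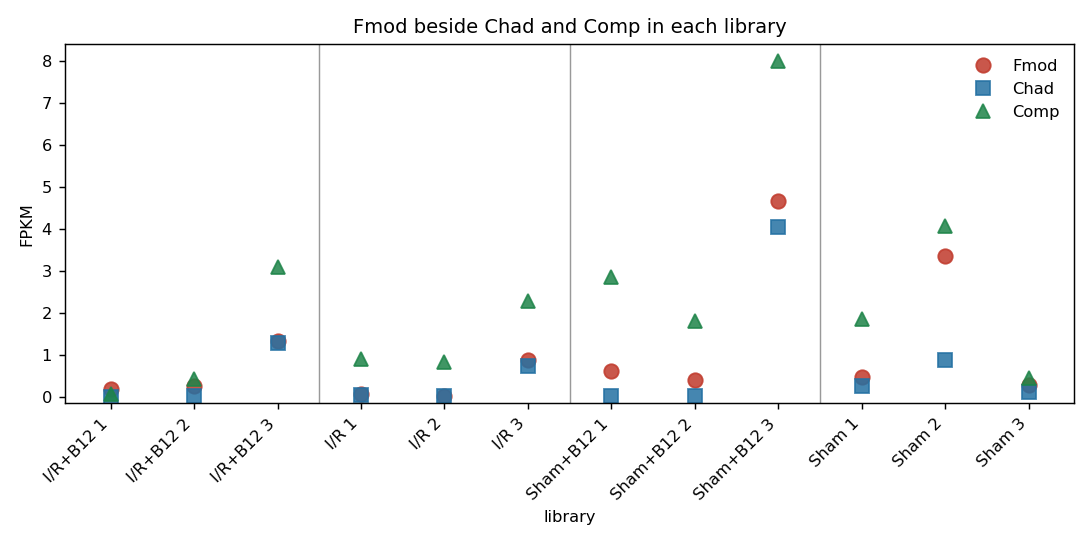
FPKM (vertical axis) of Fmod, Chad and Comp in each of the 12 libraries, in the order I/R+B12, I/R, Sham+B12 and Sham, with vertical lines between groups. The 3 genes peak in the same library of each group, highest in Sham+B12 3 at 4.67, 4.06 and 8.01 FPKM.

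The library preparation is not stated to keep strand, and some SLRP genes overlap others. Cenpp, a centromere protein gene on the opposite strand, spans Aspn, Omd and Ogn, and was between 0.44 and 1.32 FPKM in all libraries, with a difference of -0.14 between I/R+B12 and I/R and -0.12 between I/R+B12 and Sham+B12. Scp2, a lipid transfer protein gene on the same strand as Podn, overlaps it and was between 207 and 275 FPKM, with differences of -0.14 and 0.10 in the same comparisons. The antisense gene Gm15851 at Prelp was at 0 in all libraries.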

How the data were processed

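Per the labels' protocols, poly(A)-selected libraries of heart RNA were made with a TruSeq kit and sequenced in pairs. The authors deposited 1 table of FPKM values per gene and library, made with HISAT2, StringTie and mm10 per the submitters' processing notes. Versions, annotation release and read counts are not given in the sources used here. The authors' group means were not used. Depth was estimated from genes with 1 transcript and low FPKM, whose values move in steps of 1 fragment: of these values, 82.9% to 88.1% lay within 0.15 of a whole fragment. It is an estimate and covers counting error only.

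Values were taken as log2(FPKM + 1), which understates changes of low genes. The 13001 genes at 1 FPKM or more in at least 3 libraries were fitted with limma 3.58.1 (R 4.3.3) over the 4 groups, with a variance trend, two-sided moderated tests and Benjamini-Hochberg adjustment within each contrast. The fit was tested on simulated data with independent noise, smaller than the observed spread, and no libraries that stand apart. That test cannot show how the fit handles libraries such as I/R 3 and Sham 3. The 9 genes and all gene lists were chosen with earlier results of these data known. All 9 were named. Genes named from the other lists come from a rule: every called gene of a list in a contrast where 6 or fewer were called, otherwise the 4 with the smallest p, or the 2 with the smallest p where 0 were called. The genes most alike in pattern were the 5 with the highest r, leaving out predicted genes. Tables and figures used Python 3.11.15 and matplotlib 3.10.9. Of the table's IDs, 55141 were in GENCODE M21. Alternatives were pseudocounts of 0.1 and 0.5, no filter, a filter at 5 FPKM, median-ratio and quantile scaling, the compared groups alone, no variance trend, library weights, a replicate block, each library left out, and I/R 3 and Sham 3 left out together. Counts of non-overlapping genes without libraries that stand apart were added after the data were seen. Lists of fibroblast, macrophage, neutrophil and other cell markers were summed per library.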

Additional observations from a re-analysis of the deposited data

How the results depend on the processing

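For the 7 tested genes other than Fmod, the direction of both I/R+B12 differences (from I/R, and from Sham+B12) held under every alternative run, and most single differences kept their side of the threshold (831 results over 5 contrasts, while 48 reversed). In I/R+B12 against I/R, 4 genes were called with library weights, and 0 to 6 when single libraries were left out, the 6 without I/R+B12 1 and 1 (Lum) without Sham 3. In I/R+B12 against Sham+B12, 0 were called without the filter, where more genes are tested, 2 with quantile normalization (Bgn and Prelp), 3 with library weights, 3 without Sham 3 and I/R 3, and 0 to 2 with single libraries left out. Leaving out I/R+B12 2 or any Sham+B12 library gave 0, and leaving out I/R+B12 1, I/R 3 or Sham 3 gave 2. In the compared groups alone the 1 call was Ogn and not Prelp. In the interaction, 1 was called with library weights, and 0 to 1 with single libraries left out. Without overlap, SLRP genes lower in I/R than in Sham numbered 3 without Sham 3 and I/R 3, and 0 to 1 with 1 of them left out, and those lower in Sham+B12 than in Sham numbered 2 without Sham 3. With the replicate block, 1 gene (Prelp) was called in I/R+B12 against Sham+B12 and 0 in the other comparisons. Shares of all tested genes called lower were computed for both I/R+B12 comparisons with library weights, without I/R+B12 1, and without Sham 3 and I/R 3. For the other alternatives, and for the interaction under every alternative, such shares were not computed. The counts of called SLRP genes there have no background. A check of the replicate numbers showed no pairing of the libraries. Over 18 same-number pairs the mean r was 0.01 (-0.41 to 0.39), against -0.01 over 36 other pairs. Of the 12 libraries, 5 were most like one of their own number. With r spread this widely, the check cannot exclude a pairing.

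The other reversals were of differences that were not called, and their cause was not tested. In I/R against Sham, Dcn was -0.092 with median-ratio scaling, -0.025 with quantile normalization and -0.036 without Sham 3 and I/R 3, and Bgn was -0.10, -0.0023 and -0.013 in the same order. With library weights Lum was -0.066, Bgn -0.20, Ogn -0.15 and Aspn -0.037. Without Sham 3 and I/R 3, Lum was -0.16, Ogn -0.55, Aspn -0.16 and Podn 0.011, and in Sham+B12 against Sham, Fmod was -0.12, Prelp -0.15 and Ogn -0.22. Quantile normalization gave 0.0061 for Aspn and 0.011 for Podn in Sham+B12 against Sham. With single libraries left out, Fmod ran from -0.051 to 0.53 in I/R+B12 against I/R, from -0.99 to 0.014 in I/R+B12 against Sham+B12, from -0.50 to 0.68 in the interaction and from -0.43 to 0.75 in Sham+B12 against Sham. In I/R against Sham, Dcn ran from -0.082 to 0.16, Bgn from -0.11 to 0.19, Prelp from -0.24 to 0.12, Ogn from -0.25 to 0.65 and Podn from -0.25 to 0.046. In Sham+B12 against Sham, Prelp ran from -0.15 to 0.21, Ogn from -0.22 to 0.46, Aspn from -0.27 to 0.14 and Podn from -0.22 to 0.075. Depth limits Omd and Fmod, which had as few as 2 estimated fragments in a library.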

Other observations

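Some markers of other cell types were called in I/R+B12 against Sham+B12 in the same limma fit. Of all tested genes, 10.4% were called there, 6.78% higher and 3.62% lower. Of 8 tested pericyte and smooth muscle markers, Abcc9 (-0.84), a potassium channel subunit gene, and Myh11 (-0.85), smooth muscle myosin, were called lower, with a list median of -0.37. Of 10 tested activated fibroblast genes, Lox (2.27, adjusted p = 0.0320), which crosslinks collagen, was called higher, with a list median of 0.17. Wt1 (1.28, adjusted p = 0.0197), the 1 of 8 epicardial genes that was tested, and Pecam1 (0.63, adjusted p = 0.0259), 1 of 8 endothelial markers, were called higher. The neutrophil genes Retnlg (5.13, adjusted p = 0.0421) and S100a9 (6.03, adjusted p = 0.0485) were also called higher. None was called by limma among 11 cardiomyocyte, 9 macrophage, 5 red cell, 4 connective tissue, 3 atrial and 3 Schwann cell markers. Of the 11 cardiomyocyte markers, 10 were negative and 1 positive, with a median of -0.28, where 51.9% of all tested genes were negative. At an unadjusted p under 0.05, 3 cardiomyocyte, 2 macrophage, 2 connective tissue and 1 Schwann cell markers were lower, against 15.0% of all tested genes. At the same cut 1 macrophage and 1 connective tissue marker were higher, and 0 red cell or atrial markers differed. The part of these cell types in the proteoglycan differences was not tested.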
